A study of Homo sapiens with 15 samples.

Results

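Cisplatin-treated PEO1 and PEO4 cells were compared over the bodies of long protein-coding genes, at the doses that the study chose for a similar total of platinum adducts in both lines. The quantity described is the response difference, which is the log2 change of PEO4 at 32 µM over untreated PEO4, less the log2 change of PEO1 at 16 µM over untreated PEO1. A value above 0 means that reads at a gene, scaled over all genes tested, rose more, or fell less, in PEO4 than in PEO1. The genes were all protein-coding genes of chromosomes 1 to 22 that span at least 50 kb in hg19, with a read window given to a gene by its midpoint. There were 6520 such gene bodies among 19222 autosomal protein-coding genes, and 6498 of them had a mean of at least 50 reads and were tested. They held 39.6% of the autosomal windows with reads, and 2266 of them overlapped another protein-coding gene, with which they share reads.

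PEO1 and PEO4 are high-grade serous ovarian cancer lines from the same patient, taken before and after platinum resistance appeared in the clinic. Each line stands for 1 tumour at 1 time, and the pair differs in copy number as well as in drug response. In Pt-exo-seq, exonucleases digest sheared DNA until a platinum adduct stops them, and the platinum is then displaced so that the fragment can be copied and sequenced. The groups were PEO1 without drug, PEO1 with cisplatin at 16 µM, PEO4 without drug and PEO4 with cisplatin at 32 µM, with exposures of 5 h and 3 libraries in each. The 3 libraries of PEO4 at 16 µM entered the count minimum, the scaling and the fit, and helped to set its estimate of spread. They also entered the GC offset and the check of replicate pairing over all groups, both given below. No response described here is theirs. The 15 libraries had total counts of 27.7 M to 56.6 M over the windows, and the 32 µM libraries were the shallowest. Untreated libraries carry the background of the assay and the copy number of the line, so every value is set against the untreated libraries of its own line. Counts are relative within a library, so they cannot show whether the 2 doses gave the same adduct load.

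Cisplatin binds the N7 atom of purines and forms mainly crosslinks between adjacent guanines on 1 strand. Nucleotide excision repair removes such crosslinks, through a branch that scans the whole genome and a branch that starts from RNA polymerase stalled on the transcribed strand. Long genes are a natural place to look for adducts within transcribed DNA because a single body holds many windows. Long genes also tend to be poor in G and C, and such DNA holds fewer adjacent guanines.

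As examples of the reference sequence, 200 bases are given from the midpoint of 2 of these genes, both intronic and given on the plus strand of hg19, with every GG and CC step in capitals, since a CC step is a GG step on the other strand. SI (sucrase-isomaltase, an intestinal sugar-digesting enzyme) had the lowest GC content of the tested genes, 31.3% over its body, and CACNA1H (a T-type calcium channel subunit) had the highest, 65.1%. CACNA1H is shown for that reason, and ACO1 because it had the smallest p-value for a response difference above 0 among the genes whose midpoint sequence could be shown.
CACNA1H, chr16:1237338-1237537: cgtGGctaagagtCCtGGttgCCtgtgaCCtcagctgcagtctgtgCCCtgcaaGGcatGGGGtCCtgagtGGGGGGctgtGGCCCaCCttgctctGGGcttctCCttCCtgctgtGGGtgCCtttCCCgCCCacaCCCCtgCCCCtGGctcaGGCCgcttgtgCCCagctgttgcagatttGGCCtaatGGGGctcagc
ACO1, chr9:32419584-32419783: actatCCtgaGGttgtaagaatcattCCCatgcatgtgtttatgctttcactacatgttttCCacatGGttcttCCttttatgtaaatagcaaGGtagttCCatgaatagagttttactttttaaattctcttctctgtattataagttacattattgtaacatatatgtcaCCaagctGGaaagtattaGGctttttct
The stretch of CACNA1H held 48 GG or CC steps and that of ACO1 held 12. Neither stretch stands for its whole body or for the spread among the genes. Over whole bodies, 5.98% of dinucleotide steps were GG or CC in SI, 10.6% in ACO1, 18.3% in ADPRHL1 and 25.4% in CACNA1H.

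Neither end of this range passed the test. SI had TMM-scaled counts of 2170, 1990 and 2105 in PEO1 without drug, 1480, 1996 and 2029 in PEO1 at 16 µM, 971, 1091 and 1022 in PEO4 without drug, and 931, 1470 and 1291 in PEO4 at 32 µM. Treated and untreated libraries of SI overlapped in both lines. Its response difference was 0.44 ± 0.19 (log2, SE; adjusted p = 0.598 in edgeR). When a smooth curve of counts on gene GC was fitted and removed in each library (a GC offset), it was -0.0010. CACNA1H had scaled counts of 575, 734 and 608 in PEO1 without drug, 1334, 799 and 786 in PEO1 at 16 µM, 1042, 768 and 1002 in PEO4 without drug, and 1144, 736 and 793 in PEO4 at 32 µM. Treated PEO1 lay above untreated PEO1 without overlap, mainly through replicate 1, while the PEO4 groups overlapped. The response difference of CACNA1H was -0.68 ± 0.28 (log2, SE; adjusted p = 0.598 in edgeR), or -0.10 with the GC offset, and its body overlaps another gene.

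No gene body of 50 kb or more passed an adjusted p of 0.05 for the response difference. In edgeR's quasi-likelihood test, adjusted over all 16677 genes of any length, 0 of 6498 long genes were called and the smallest adjusted p was 0.598. The background over all genes tested was 0%. DESeq2 and limma on the ratios to the untreated mean also called 0 of them. At an unadjusted p under 0.05 there were 544 long genes, or 8.37%, against 8.1% of all genes tested, so the share was close to the background. Of the 544, 382 were above 0 and 162 were below 0.

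That unadjusted count depended on single libraries. It was 199 without PEO1 16 µM replicate 1, 233 without untreated PEO1 replicate 1, 311 without untreated PEO4 replicate 1, 258 without untreated PEO4 replicate 3, 232 without PEO4 32 µM replicate 2 and 291 without PEO4 32 µM replicate 3. It was 823 and 817 without PEO1 16 µM replicates 2 and 3, and 1544 without PEO4 32 µM replicate 1. In each of these fits the count at an adjusted p under 0.05 was 0.

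The parts of the difference gave no calls either. In PEO1, 0 of 6498 long genes were called at 16 µM against untreated (background 0.006%), and 206 or 3.17% had an unadjusted p under 0.05 (background 5.67%). In DESeq2 the PEO1 count was 1, the gene TTC34, named here after its value was seen, with a log2 change of 0.66 and an adjusted p of 0.0259. In PEO4, 0 long genes were called at 32 µM against untreated (background 0%), and 611 or 9.4% had an unadjusted p under 0.05 (background 6.79%), of which 502 were above 0. Under the GC offset the counts were 518 in PEO1 (7.97%, against 7.25% of all genes tested) and 393 in PEO4 (6.05%, against 5.49%), so the PEO1 share was then above that of all genes. Without the offset, the PEO1 count was 119, 132 and 314 without PEO1 16 µM replicate 1, untreated PEO1 replicate 1 and PEO1 16 µM replicate 3. The PEO4 count was 144, 213 and 1730 without 32 µM replicates 2, 3 and 1, and 235 and 182 without untreated replicates 1 and 3.

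The response differences of the long genes were ordered by base composition. Their median was 0.10 on the log2 scale, with 4340 of 6498 above 0, while the median over all 16677 genes was 0.00 and that over 10179 shorter genes was -0.10. The TMM scaling was set on the gene-body counts of these same genes, so a median near 0 over all of them follows from it. The medians of the long and the shorter genes are therefore positions relative to all genes, not changes in amount. The median standard error of a single gene was 0.17. The range from the 5th to the 95th percentile was -0.33 to 0.39, and 156 genes lay beyond 0.5 in either direction. At the length limit, the 100 shortest genes of the set had a median of 0.06 and the 100 longest genes just under 50 kb had a median of 0.00.

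Across the 6498 genes, the response difference and GC content had a Pearson's r of -0.80 and a Spearman's rho of -0.78, which is 64.0% of the variance. The share of GG and CC steps gave an r of -0.79 and the share of AG and CT steps, the other main crosslink site, gave -0.71. GC content and GG or CC share can hardly be separated here, since their r was 0.99. The values of all genes come from the same 15 libraries, and genes are not independent replicates, so these correlations are descriptions.

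In classes of GC content the median response difference went from above 0 to below 0. It was 0.27 in 1409 genes under 38% GC, 0.15 in 2311 genes of 38 to 42%, 0.02 in 1401 genes of 42 to 46%, -0.12 in 717 genes of 46 to 50% and -0.29 in 660 genes of 50% or more. Of the genes under 38% GC, 1368 were above 0, and of those at 50% or more, 20 were. The genes with an unadjusted p under 0.05 lay at both ends. There were 214 of 1409 under 38% GC, all above 0, and 123 of 660 at 50% GC or more, all below 0, which is 15.2% and 18.6% against 8.1% of all genes tested. In the 42 to 46% class the share was 3%.

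**Figure D1:**
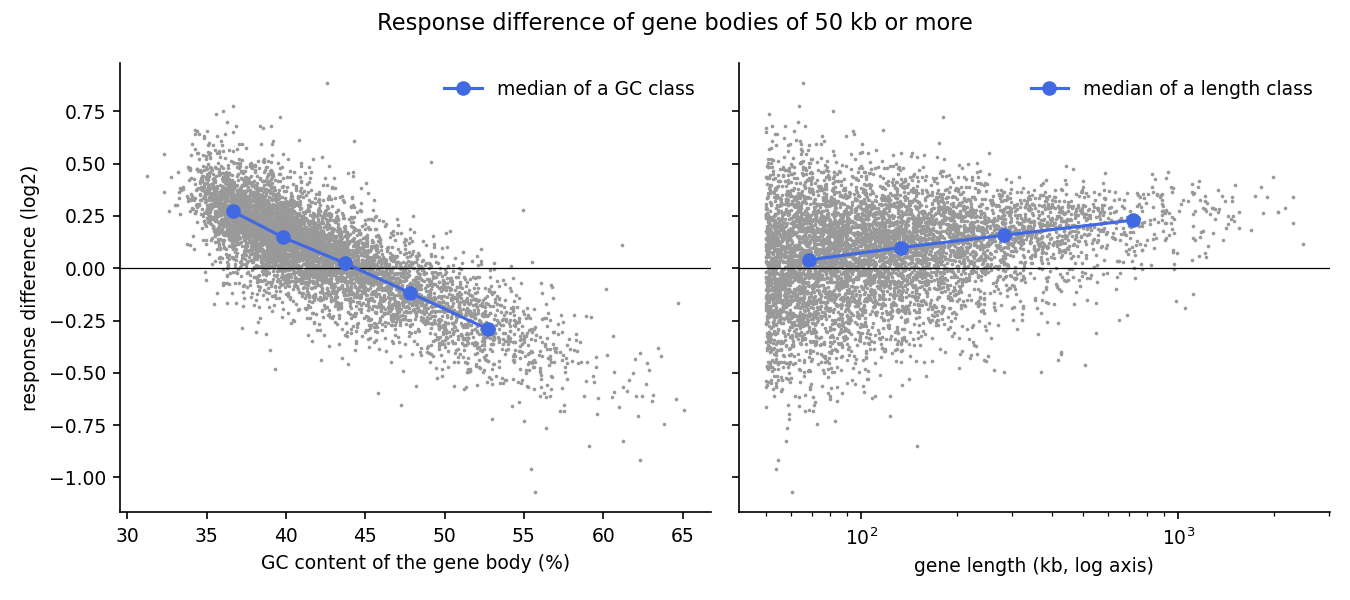
Response difference (log2) of 6498 gene bodies of 50 kb or more, 1 point a gene, against GC content (%) on the left and gene length (kb, log axis) on the right, with class medians in blue. The medians fall from 0.27 to -0.29 over the 5 GC classes and rise from 0.04 to 0.23 over the 4 length classes.

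The libraries did not share this pattern evenly. For genes under 38% GC, the median log2 ratio to the untreated mean was -0.29, 0.06 and 0.05 in PEO1 16 µM replicates 1, 2 and 3, and -0.02, 0.38 and 0.28 in PEO4 32 µM replicates 1, 2 and 3. For genes of 50% GC or more it was 0.36, 0.00 and 0.03 in PEO1 and 0.03, -0.27 and -0.23 in PEO4. PEO1 replicate 1 stood apart from its group in one direction, and PEO4 replicate 1 lay with PEO1 replicates 2 and 3. The groups overlapped in both classes.

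Expressed as a slope over the long genes, the log2 ratio changed per 10 percentage points of GC by 0.39, -0.03 and -0.02 in PEO1 at 16 µM, with a mean of 0.11 ± 0.24 (SD, n = 3). In PEO4 at 32 µM the slopes were 0.03, -0.39 and -0.31, with a mean of -0.22 ± 0.22 (SD, n = 3). The difference of -0.33 did not pass a two-sided exact permutation test of 3 against 3 (p = 0.3, adjusted p = 0.4 over the 4 slopes tested). A test of this size cannot give a p under 0.1. Between these treated groups, the deviations of libraries of the same number had an r of 0.675, 0.422 and 0.277 for replicates 1, 2 and 3. In these groups PEO1 replicate 3 had its highest r, 0.43, with PEO4 replicate 2. PEO4 replicate 3 had its highest, 0.297, with PEO1 replicate 2, so the numbers did not tell replicates 2 and 3 apart. Within pairs of the same number the difference in GC slope was -0.36, -0.35 and -0.28, with an exact sign-flip p of 0.25, the smallest that 3 pairs can give. The labels give replicate numbers but no pairing between groups. The correlations come from the same long genes and libraries as the slopes, so near-equal values within pairs are not separate evidence. The same holds for the within-pair slopes on length. Untreated libraries, set against their own mean, spanned -0.19 to 0.11 in PEO1 and -0.10 to 0.06 in PEO4.

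**Figure D2:**
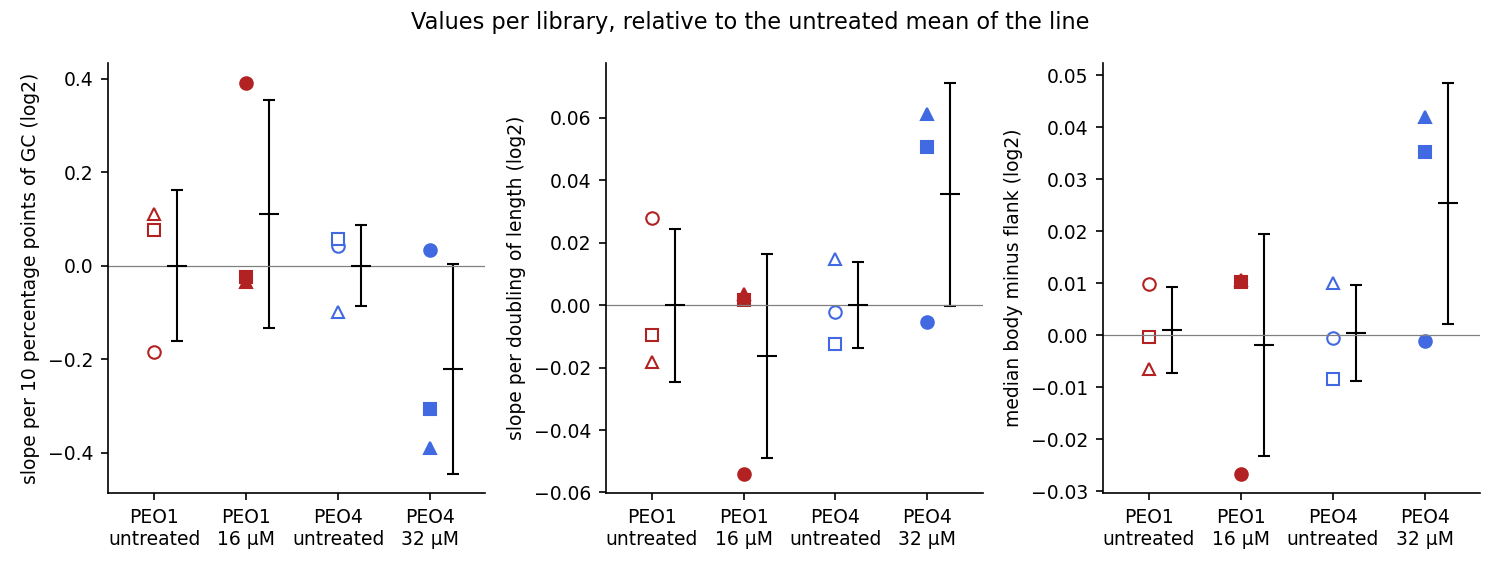
Slope on GC (log2 per 10 percentage points), slope on length (log2 per doubling) and median body minus flank value (log2) in each library, relative to the untreated mean of its line, with circles, triangles and squares for replicates 1, 2 and 3, open symbols for untreated and filled for treated libraries, and mean ± SD (n = 3) beside them. The treated groups overlap in all 3 panels, and in each treated group replicate 1 lies away from replicates 2 and 3.

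Longer genes had higher response differences, and most of this went with GC content. The median was 0.04 in 2997 genes of 50 to 100 kb, 0.10 in 2062 genes of 100 to 200 kb, 0.16 in 1129 genes of 200 to 500 kb and 0.23 in 310 genes of 500 kb or more, of which 287 were above 0. Median GC content fell over the same classes, from 42.3% to 40.8%, 39.7% and 38.2%. Across genes, the response difference and log2 length had an r of 0.24, and GC content and log2 length had an r of -0.25. The GC offset was fitted on GC in these same counts, so a loss of the part that goes with GC follows from the fit. It cannot tell an adduct response that goes with GC from any other difference that does. With the GC offset the class medians became -0.01, 0.00, 0.01 and 0.03, and the SD over genes went from 0.22 to 0.13. The genes beyond 0.5 in either direction then numbered 17, and 469 genes (7.22%, against 6.34% of all genes tested) had an unadjusted p under 0.05, with 243 above and 226 below 0.

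Within a class of GC content the medians still differed slightly by length. Under 38% GC they were 0.26, 0.27, 0.27 and 0.30 from the shortest to the longest class, and in the 38 to 42% class they were 0.13, 0.14, 0.17 and 0.19. All 147 genes of 500 kb or more under 38% GC were above 0. These steps are small beside the range of 0.27 to -0.29 between the outer GC classes.

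The slope on length was -0.0540, 0.0034 and 0.0016 per doubling in PEO1 at 16 µM and -0.0054, 0.0612 and 0.0508 in PEO4 at 32 µM. The difference of the means, 0.0518, did not pass the exact permutation test (p = 0.3, adjusted p = 0.4), and the groups overlapped. Within pairs it was 0.0486, 0.0577 and 0.0492 (exact sign-flip p = 0.25, the smallest possible). With GC content in the same regression, PEO1 had slopes of -0.0029, -0.0012 and -0.0016, while those of PEO4 were -0.0012, 0.0110 and 0.0114. Their means were -0.0019 ± 0.0009 and 0.0071 ± 0.0071 (SD, n = 3), a difference of 0.0090 per doubling. The lowest PEO4 value lay just above the highest PEO1 value, and the exact permutation p was 0.1, the smallest that 3 against 3 can give (adjusted p = 0.4). That test leaves out the error of the untreated means to which the values are set. The untreated SD of this slope was 0.0040 in PEO1 and 0.0047 in PEO4, far wider than the gap between the groups. Within pairs the difference was 0.0018, 0.0122 and 0.0130 (exact sign-flip p = 0.25). Untreated libraries spanned -0.0041 to 0.0038 in PEO1 and -0.0053 to 0.0034 in PEO4, and only PEO4 replicates 2 and 3 lay outside that range.

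The 3 longest genes code for neuronal proteins. RBFOX1, a splicing factor of 2474 kb at chr16:5289803-7763342, had scaled counts of 33754, 30852 and 31298 in PEO1 without drug and 28911, 30474 and 31132 at 16 µM, and of 28591, 29649 and 28525 in PEO4 without drug and 29544, 30193 and 29093 at 32 µM. The groups overlapped in both lines, and the response difference was 0.12 ± 0.11 (log2, SE; adjusted p = 0.70 in edgeR). Its GC content was 42.4%, and its response difference with the GC offset was 0.05. CNTNAP2, a contactin-associated adhesion protein of 37.5% GC at chr7:145813094-148118090, had a response difference of 0.22 ± 0.15, which became -0.01 with the GC offset. PTPRD, a receptor tyrosine phosphatase of 35.5% GC at chr9:8314246-10613002, had 16626, 13920 and 14312 in PEO1 without drug, 11801, 14847 and 15424 at 16 µM, 12270, 12707 and 11388 in PEO4 without drug, and 11882, 16263 and 15032 at 32 µM. In PTPRD the low PEO1 library and the low PEO4 library at the treated doses were both replicate 1, and the response difference of 0.34 ± 0.18 became 0.04 with the GC offset.

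The 6 genes with the smallest p-values above 0 had lower mean scaled counts in treated than in untreated PEO1 and higher ones in treated PEO4, and none passed the adjusted limit (adjusted p = 0.598 for each in edgeR). ADAM2, a sperm surface protein at chr8:39601254-39695746, had scaled counts of 1356, 1402 and 1483 in PEO1 without drug and 1164, 1250 and 1264 at 16 µM. In PEO4 it had 1020, 1069 and 1092 without drug and 1121, 1744 and 1491 at 32 µM. The groups did not overlap in either line, PEO4 replicate 1 was again the low one, and the response difference of 0.66 ± 0.17 (log2, SE) was 0.33 with the GC offset.

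ACO1, the cytosolic aconitase that also acts as iron regulatory protein, lies at chr9:32384601-32454767 with 41.7% GC. It had 978, 1069 and 1076 in PEO1 without drug and 816, 867 and 917 at 16 µM, and 871, 835 and 868 in PEO4 without drug and 990, 989 and 1094 at 32 µM. Neither line overlapped, all 3 PEO4 replicates were high, and the response difference of 0.52 ± 0.15 (log2, SE) was 0.43 with the GC offset. DERA, an aldolase that breaks down deoxyribose phosphate, had 0.54 ± 0.15, and 0.37 with the offset. MRAP2, an accessory protein of melanocortin receptors with 42.3% GC, had 0.53 ± 0.16, and 0.46 with the offset. FAM174A had 0.74 ± 0.22, and 0.47 with the offset. BEND6, a BEN domain protein, had 0.60 ± 0.17, of which -0.46 was the PEO1 response and 0.14 the PEO4 response, and the offset gave 0.40.

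The 6 genes with the smallest p-values below 0 had between 48.2% and 59.1% GC, apart from PLXNA1 at 62.3% (adjusted p = 0.598 for each in edgeR). TTC34, a tetratricopeptide repeat protein at chr1:2568425-2718258, had 297, 300 and 347 in PEO1 without drug and 573, 504 and 416 at 16 µM, and 658, 563 and 635 in PEO4 without drug and 527, 581 and 522 at 32 µM. PEO1 did not overlap and PEO4 did, and the response difference of -0.85 ± 0.20 (log2, SE) was -0.41 with the GC offset. The midpoint of TTC34 lies in a stretch of unknown bases in the reference, and so part of its body could hold no reads.

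ADPRHL1, an ADP-ribosylhydrolase-like protein of heart muscle at chr13:114053926-114107803, had 239, 332 and 294 in PEO1 without drug and 473, 503 and 365 at 16 µM, and 382, 348 and 451 in PEO4 without drug and 369, 256 and 314 at 32 µM. The PEO1 groups did not overlap and the PEO4 groups did. Its response difference of -0.96 ± 0.25 (log2, SE) was -0.65 with the GC offset. PLXNA1, a semaphorin receptor at chr3:126701536-126756232, had 458, 687 and 653 in PEO1 without drug and 1197, 767 and 745 at 16 µM, and 1005, 880 and 1056 in PEO4 without drug and 901, 691 and 749 at 32 µM. PEO1 replicate 1 was the high one, and the response difference of -0.92 ± 0.25 was -0.65 without that library and -0.42 with the GC offset.

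For DAGLB, a diacylglycerol lipase, the PEO1 response was 0.01 and the PEO4 response -0.55. It had 462, 564 and 563 in PEO1 without drug and 552, 504 and 544 at 16 µM, and 577, 607 and 600 in PEO4 without drug and 443, 393 and 378 at 32 µM. All 3 treated PEO4 libraries lay below the untreated ones, and the response difference of -0.56 ± 0.18 (log2, SE) was -0.45 with the GC offset. CORO7, a coronin of the Golgi, had -0.66 ± 0.21, and -0.26 with the offset. RAP1GAP2, an activator of GTP hydrolysis by Rap1, had -0.49 ± 0.16, and -0.26 with the offset. DAGLB and CORO7 overlap other genes.

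**Figure D3:**
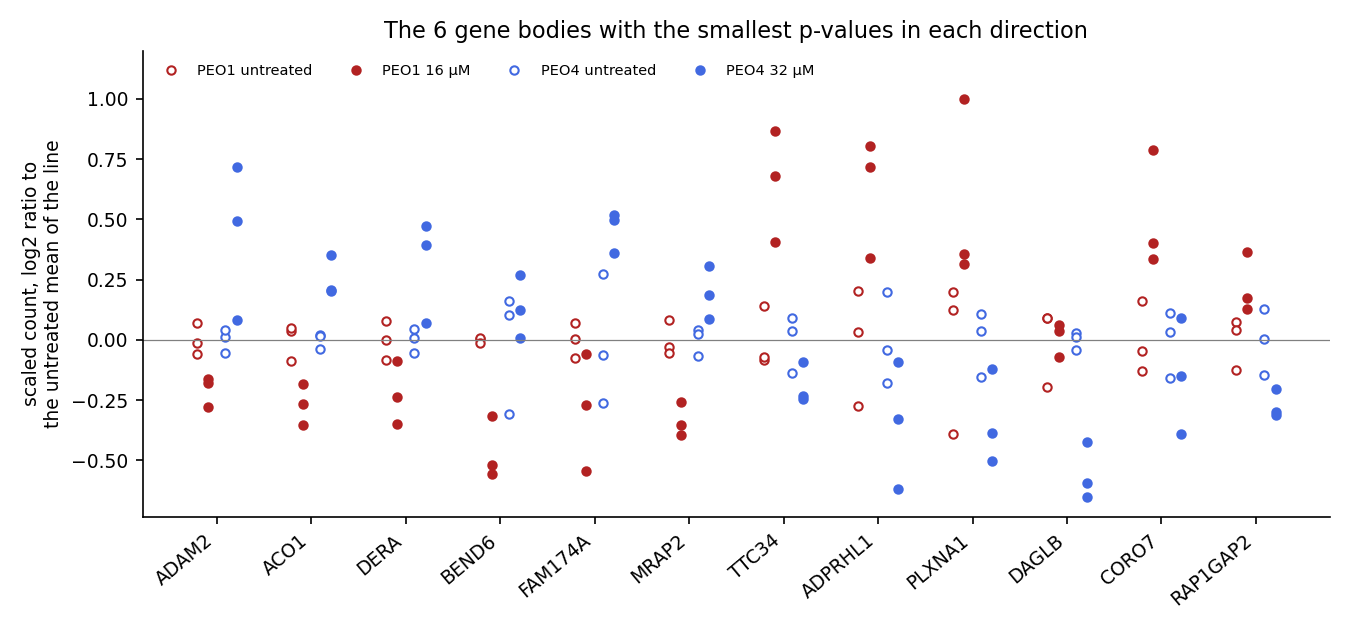
Scaled counts of 12 gene bodies, the 6 with the smallest p-values on each side, as log2 ratios to the untreated mean of the line, with 3 libraries a group. The 6 genes from ADAM2 to MRAP2 have response differences of 0.52 to 0.74 and the 6 from TTC34 to RAP1GAP2 of -0.96 to -0.49, and the untreated PEO1 libraries of PLXNA1 spread about as widely as the treated ones.

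Gene bodies were next set against their flanks of 100 kb on each side, which share copy number with the body. No gene passed. In limma's trend test on the log2 ratio of body to flank reads per window, 0 of 6498 long genes were called (background 0%), and the smallest adjusted p was 0.750. At an unadjusted p under 0.05 there were 445, or 6.85%, against a background of 6.27%, with 300 above and 145 below 0. Leaving out replicate 1 of PEO1 at 16 µM gave 265, and leaving out replicate 1 of PEO4 at 32 µM gave 757. Within the lines, 0 long genes were called in PEO1 (background 0.006%) and 0 in PEO4 (background 0%), and 331 or 5.09% had an unadjusted p under 0.05 in PEO1 (background 6.5%) and 512 or 7.88% in PEO4 (background 5.89%). With flanks of 50 kb, 1 long gene was called in PEO1, PRDM15 (log2 0.71, adjusted p = 0.0189 in limma). Without PEO4 32 µM replicate 1, 4 were called in PEO4, namely RANBP17 (0.53, adjusted p = 0.0284), FRMD3 (-0.55, adjusted p = 0.0195), GRIK4 (-0.55, adjusted p = 0.0381) and TBCEL (0.78, adjusted p = 0.0195). These 5 genes are named after their values were seen.

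Bodies and flanks had similar response differences. Across the 6498 genes, the response differences of body and flanks, which come from the same libraries, had an r of 0.61. The median response difference of the flanks was 0.06 against 0.10 in the bodies, and the median of body minus flank was 0.03, with 3635 genes above 0. Bodies were poorer in GC than their flanks in 4064 of 6498 genes, with a median difference of -0.82 percentage points. Across genes, body minus flank and the difference in GC content between them had an r of -0.53, and body minus flank and log2 length had an r of 0.03. With the GC offset applied to body and flank, the median of body minus flank was 0.0001 and 402 genes (6.19%, against 5.89% of all genes tested) had an unadjusted p under 0.05.

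By library, the median body minus flank value relative to untreated was -0.027, 0.011 and 0.010 in PEO1 at 16 µM and -0.001, 0.042 and 0.035 in PEO4 at 32 µM. The groups overlapped, with means of -0.002 ± 0.021 and 0.025 ± 0.023 (SD, n = 3). At equal GC of body and flank, a regression added after the data were seen, PEO1 had values of 0.0066, 0.0053 and 0.0053, which overlapped those of PEO4 at 0.0015, 0.0104 and 0.0095. The slope of body minus flank on length, with the GC difference in the same regression, was 0.0024 ± 0.0017 per doubling in PEO1 and 0.0028 ± 0.0032 in PEO4 (SD, n = 3), and the exact permutation test gave p = 0.8 (adjusted p = 0.8).

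None of the genes with the smallest p-values against their flanks passed (adjusted p = 0.750 for each in limma). PLXNA1 had log2 body over flank values of -0.74, -0.30 and -0.30 in PEO1 without drug and 0.43, 0.03 and 0.09 at 16 µM, and of 0.18, 0.09 and 0.30 in PEO4 without drug and 0.17, -0.08 and 0.11 at 32 µM. Only PEO1 did not overlap, and body minus flank of -0.75 ± 0.18 (log2, SE) was -0.46 with the GC offset. The body of PLXNA1 had 62.3% GC and its flanks 50.4%. PKD2L2, a polycystin-like channel at chr5:137223657-137278436, had -0.16, -0.06 and -0.21 in PEO1 without drug and 0.52, 0.43 and 0.38 at 16 µM, and 0.05, 0.07 and 0.32 in PEO4 without drug and 0.21, 0.01 and -0.19 at 32 µM. All 3 treated PEO1 libraries were high, body and flank had 39.3% and 39.0% GC, and body minus flank of -0.73 ± 0.18 was -0.72 with the GC offset. KLHL29, a kelch-like protein with 50.5% GC in its body and 41.7% in its flanks, had -0.48 ± 0.14, and -0.19 with the offset.

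Above 0, the gene model of HBG2, a fetal globin, spans 252 kb at chr11:5274418-5526835 and overlaps other genes, and its near-identical neighbour HBG1 can share reads with it. It had log2 body over flank values of -0.08, 0.10 and 0.29 in PEO1 without drug and -0.23, -0.27 and -0.15 at 16 µM, and of -0.06, -0.14 and -0.09 in PEO4 without drug and 0.19, 0.03 and 0.29 at 32 µM. Treated libraries lay below untreated ones in PEO1 and above them in PEO4, without overlap, and body minus flank was 0.58 ± 0.15 (log2, SE), or 0.57 with the GC offset. PPIE, a cyclophilin of the spliceosome, had 0.57 ± 0.17, and 0.43 with the offset. SMAP1, which activates GTP hydrolysis by Arf6, had 0.44 ± 0.13, and 0.34 with the offset. Both overlap other genes.

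Along the gene, the difference between the means of the lines followed GC content, though the treated groups overlapped in most bins. The reads themselves departed from GC content at the start of the body. Each body was divided into 20 bins and each flank into 10 bins of 10 kb, read in the direction of transcription, and the read share of each bin was set against the untreated mean. The difference between PEO4 and PEO1 was between 0.024 and 0.063 (log2) in the 18 inner bins of the body, where GC content was 40.5% to 41.8%. It was -0.004 in the first bin, with 43.3% GC, and 0.011 in the last. In that first bin, which starts at the transcription start, all 6 treated libraries were above the untreated ones, at 0.069, 0.028 and 0.032 in PEO1 and 0.028, 0.036 and 0.052 in PEO4, against -0.006 to 0.011 in untreated libraries. The difference was -0.044 to -0.019 upstream and -0.060 to -0.024 downstream, where GC content was 42.6% to 44.2%. Treated PEO1 and PEO4 libraries were without overlap in 1 of 10 upstream bins, 2 of 20 body bins and 0 of 10 downstream bins. Over the 40 bins the difference and GC content had an r of -0.98, a description, since the bins share libraries and genes. A second measure took a stretch several bins long at the start of the body, less an equal stretch at its end. Its median over genes was 0.004 ± 0.008 in PEO1 and 0.004 ± 0.005 in PEO4 (log2, SD, n = 3). No difference between the lines was detectable in it. These stretches are much wider than the first bin, so the measure does not describe the rise there.

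**Figure D4:**
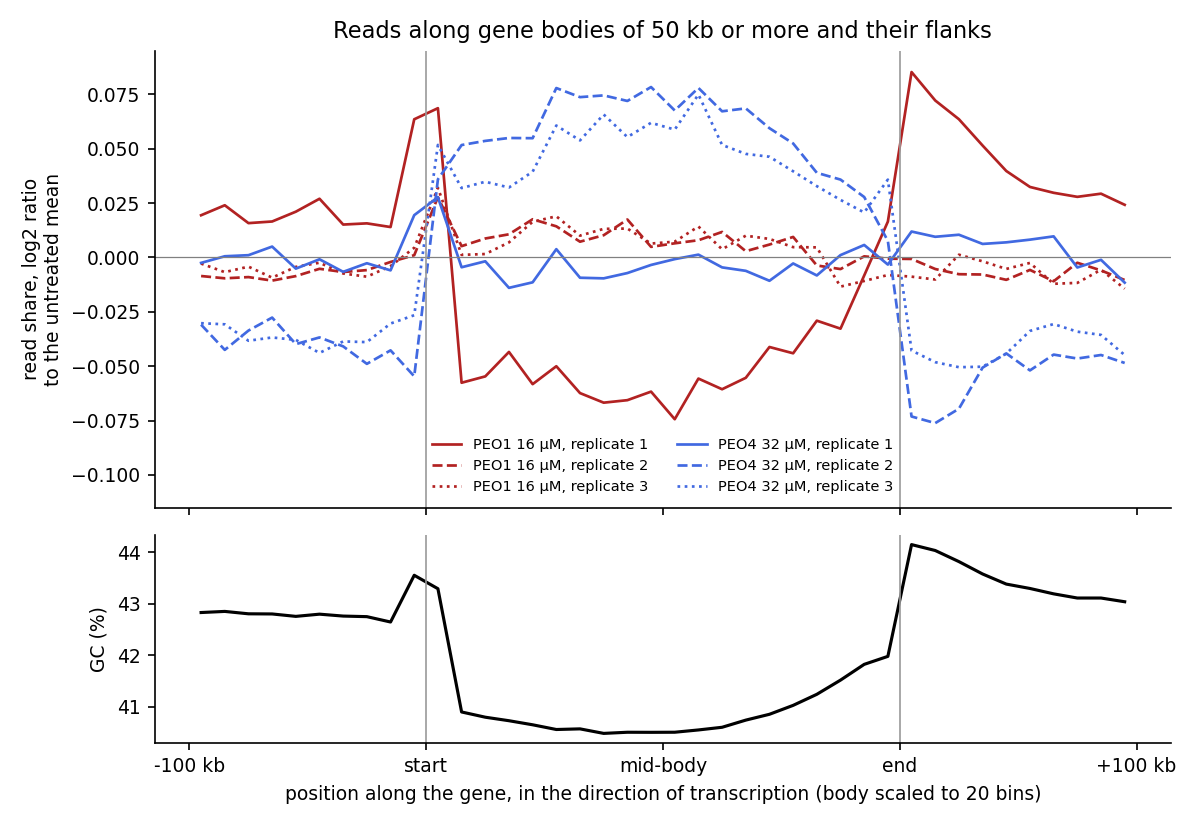
Read share in 20 bins of the gene body and in 10 kb bins of both flanks, as the log2 ratio to the untreated mean of the line, for each treated library (top), and GC content in % (bottom). PEO4 replicates 2 and 3 are high inside the body and low in the flanks, PEO1 replicate 1 is the reverse, and the other treated libraries stay near 0 away from the start.

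The share of autosomal reads in long gene bodies hardly moved. It was 40.87% ± 0.07 in PEO1 without drug and 40.99% ± 0.05 at 16 µM, and 40.66% ± 0.04 in PEO4 without drug and 40.61% ± 0.09 at 32 µM (SD, n = 3). As log2 ratios to untreated, the PEO1 libraries had 0.0056, 0.0050 and 0.0022, and the PEO4 libraries had -0.0007, -0.0053 and 0.0003. The treated groups did not overlap, and the difference of -0.0061 has the opposite sign to the median response difference of the genes. Over genes of 100 kb or more the difference was 0.0147, but there reads were summed per gene, so windows shared by overlapping genes count more than once.

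Gene lists, 7 in all, were described beside all long genes, whose median response difference was 0.10 and whose share with an unadjusted p under 0.05 was 8.37%. No gene of any list was called, and 5 genes stand on 2 lists. The lists with the highest medians held the longest and most GC-poor genes. Single libraries moved the medians given below. Without PEO1 16 µM replicate 1 they were 0.16 in synaptic and adhesion, 0.15 in fragile site, 0.09 in platinum transport, 0.07 in cancer and 0.04 in broadly transcribed genes. Without untreated PEO1 replicate 1 these 5 were 0.18, 0.17, 0.08, 0.10 and 0.04, and DNA repair genes had 0.07. Without PEO4 32 µM replicate 2, DNA repair genes had 0.07, platinum transport genes 0.06, cancer genes 0.08 and broadly transcribed genes 0.04. Broadly transcribed genes also had 0.05 without PEO4 32 µM replicate 3, 0.14 without PEO1 16 µM replicate 3 and 0.13 without untreated PEO4 replicate 2.

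Synaptic and adhesion genes, which are among the longest human genes and mostly silent outside nerve cells, had a median of 0.27, with 47 of 49 above 0. Of these, 9 or 18.4% had an unadjusted p under 0.05, all above 0. Their median GC content was 37.5% and their median length 1112 kb, and with the GC offset their median was 0.05. CDH10, a neuronal cadherin, had scaled counts of 1099, 1060 and 973 in PEO1 without drug and 870, 1031 and 1017 at 16 µM, and 771, 785 and 893 in PEO4 without drug and 841, 1346 and 1139 at 32 µM. Both lines overlapped, and its response difference was 0.54 ± 0.20 (log2, SE; adjusted p = 0.598 in edgeR). The offset gave 0.18. CDH12, a related cadherin, had 0.40 ± 0.17, and 0.11 with the offset.

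Genes at common fragile sites, which break under replication stress, had a median of 0.25, with 18 of 20 above 0 and 3 at an unadjusted p under 0.05. Their median GC content was 37.6%, and with the GC offset their median was 0.02. DPYD, the enzyme that degrades fluorouracil, had 13971, 11102 and 12277 in PEO1 without drug and 9466, 12917 and 12521 at 16 µM, and 9939, 11266 and 9505 in PEO4 without drug and 10512, 14863 and 13283 at 32 µM. Replicate 1 was the lowest treated library in each line, and the response difference of 0.43 ± 0.19 was 0.12 with the offset.

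DNA repair genes had a median of 0.14, with 30 of 46 above 0 and 4, or 8.7%, at an unadjusted p under 0.05, close to the share of all long genes. Their range ran from -0.46 in CHEK2, a checkpoint kinase, to 0.47 in ERCC8, a factor of transcription-coupled repair. With the GC offset the median was -0.04. REV3L, the catalytic subunit of the polymerase that copies past cisplatin crosslinks, had 3004, 2832 and 2859 in PEO1 without drug and 2266, 2962 and 3057 at 16 µM, and 2192, 2459 and 2331 in PEO4 without drug and 2691, 3184 and 3151 at 32 µM. The 3 treated PEO4 libraries lay above the untreated ones, PEO1 overlapped, and the response difference was 0.44 ± 0.16 (log2, SE; adjusted p = 0.598 in edgeR). POLQ, the polymerase of microhomology-mediated end joining, had 0.39 ± 0.15. The offset gave 0.20 in REV3L and 0.23 in POLQ.

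Genes of platinum transport and detoxification had a median of 0.14, with 10 of 15 above 0 and 0 at an unadjusted p under 0.05. GCLC, the catalytic subunit of the first enzyme of glutathione synthesis, had 0.29 ± 0.15, and ABCB1, the drug efflux pump P-glycoprotein, had 0.29 ± 0.17. Cancer genes had a median of 0.16, with 33 of 45 above 0 and 5 at an unadjusted p under 0.05, 4 above and 1 below 0. Among them CDK6, a cell cycle kinase, had 0.41 ± 0.16 and EPHA3, an ephrin receptor, had 0.41 ± 0.18. Genes of the Müllerian epithelium, from which these tumours arise, had a median of 0.09, with 14 of 16 above 0. In this list 3 had an unadjusted p under 0.05, 2 above and 1 below 0, and the lowest value was -0.50 (log2) in LAMA5. PGR, the progesterone receptor, had 0.49 ± 0.19 and CDH6, a cadherin of this epithelium, had 0.48 ± 0.20. The values for these genes are log2 with SE. They became 0.15 in GCLC, 0.05 in ABCB1, 0.21 in CDK6, 0.08 in EPHA3, 0.28 in PGR and 0.29 in CDH6 under the GC offset.

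Broadly transcribed genes, chosen as large genes that most cells express, had a median of 0.09, with 32 of 49 above 0 and 3 at an unadjusted p under 0.05. TOP2B, a DNA topoisomerase of 35.1% GC, had 1124, 925 and 1065 in PEO1 without drug and 691, 873 and 956 at 16 µM, and 811, 800 and 766 in PEO4 without drug and 759, 1055 and 996 at 32 µM. Both lines overlapped, and the response difference was 0.54 ± 0.19 (log2, SE; adjusted p = 0.598 in edgeR). SMARCA4, the ATPase of SWI/SNF complexes with 52.5% GC, had -0.39 ± 0.17. The offset gave 0.24 in TOP2B and -0.13 in SMARCA4. Against their flanks the list had the highest median of the 7, 0.13 against 0.03 in all long genes, with 43 of 49 above 0 and 9 at an unadjusted p under 0.05, 8 of them above 0. In all genes tested that share was 6.27%, and in all long genes it was 6.85%. The GC content of these bodies less that of their flanks had a median of -3.99 percentage points, the lowest of the 7 lists. With the GC offset, body minus flank had a median of -0.01 and 3 genes had an unadjusted p under 0.05.

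**Figure D5:**
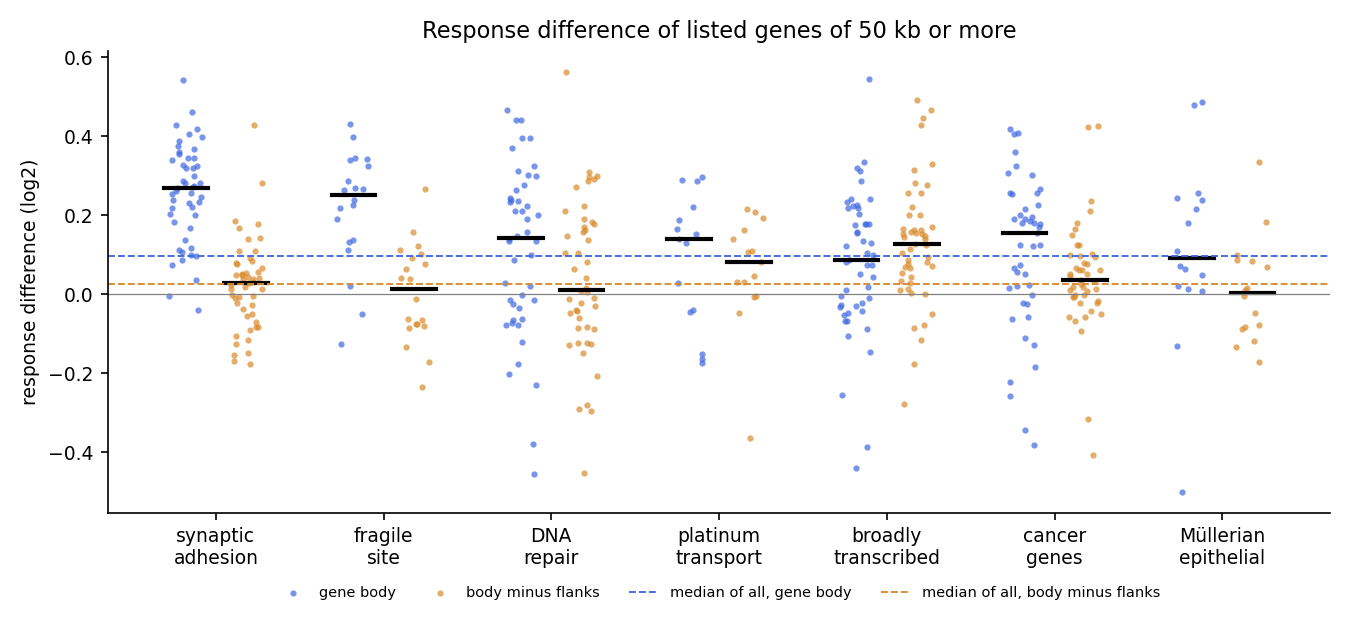
Response difference (log2) of the members of 7 gene lists, 1 point a gene, for the gene body (blue) and for body minus flanks (orange), with list medians as black bars and the medians of all 6498 long genes as dashed lines. Synaptic adhesion (0.27) and fragile site genes (0.25) have the highest body medians, and broadly transcribed genes the highest median of body minus flanks (0.13).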

How the data were processed

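Pt-exo-seq measured cisplatin-stalled exonuclease ends in genomic DNA of PEO1 and PEO4. The authors deposited raw counts per 1 kb window, stepped by 900 bp, after alignment to hg19 with Bowtie2 and duplicate removal with Picard (versions not given in the sources used here). Counts were summed over windows by midpoint within GENCODE release 44 genes placed on hg19, 1 record a symbol. edgeR 4.0.16 (TMM, quasi-likelihood F test, 5 groups, 15 libraries, mean count of at least 50, Benjamini-Hochberg over all genes) gave the response difference, and limma 3.58.1 with trend the body to flank ratio (prior count of 2). The edgeR test gives no SE, so the SE of a gene was taken as its absolute log2 estimate over the square root of F. DESeq2 1.42.0 was an alternative. Scripts were tested on simulated data. Slopes were fitted per library and compared by exact permutation tests. Pairing by replicate number was checked by the correlation of deviations from group means over the long genes. Overlapping windows share 100 bp, so neighbours share reads. Nothing says that replicates came from separate cultures, so p-values measure the spread between libraries, which may be technical.

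The genes, lists and tests were chosen with earlier results of these data known. Named genes were the 6 (response difference) or 3 (body against flanks) with the smallest p in each direction at least 1 Mb apart, the 3 longest, 2 of each list by p, and the lowest and highest in GC for sequence. Some items that this rule names are not reported here. ACO1 as a sequence, and CHEK2, ERCC8 and LAMA5 as ends of a list's range, were chosen after values were seen. A GC offset was a loess curve per library (span 0.5).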

Additional observations from a re-analysis of the deposited data

How the results depend on the processing

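The 4 counts of adjusted calls were those of the response difference, the PEO1 response, the PEO4 response and the response difference against flanks. All 4 stayed at 0 under every alternative except DESeq2, which called 1 gene in the PEO1 response. Body against flanks within a line is not among them. There PRDM15 was called in PEO1 with flanks of 50 kb, and RANBP17, FRMD3, GRIK4 and TBCEL in PEO4 without 32 µM replicate 1. The GC offset moved the list medians to 0.0472 (synaptic and adhesion), 0.0249 (fragile site), -0.0358 (DNA repair), 0.0140 (platinum transport), -0.0438 (broadly transcribed), -0.0165 (cancer genes) and 0.00727 (Müllerian), and that of CNTNAP2 reversed to -0.0104. With the GC offset, unadjusted p under 0.05 was reached by 518 genes in PEO1 and 393 in PEO4. The difference in the slope of body minus flank on length, 0.00034, reversed to -0.00133 in genes that overlap no other gene, -0.00172 with flanks of 50 kb and -0.00300 with flank windows outside genes, and ran from -0.00077 to 0.00217 with 1 library left out. The difference in body minus flank level of 0.0273 became 0.0014 at equal GC, and that in read share became 0.0147 for genes of 100 kb or more and 0.0025 for genes that overlap no other gene, where reads are summed per gene. With 1 library left out, start minus end ran from -0.0099 to 0.0032, and the list medians, in the order above, from 0.158 to 0.359, 0.147 to 0.356, 0.0703 to 0.204, 0.0644 to 0.189, 0.0358 to 0.144, 0.0722 to 0.179 and 0.0730 to 0.129. The cause of these changes was not tested.

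Over the 5 groups, replicate numbers did not pair the libraries, since same-numbered deviations had correlations from -0.724 to 0.675, with 12 of 30 above 0.1. Between PEO1 at 16 µM and PEO4 at 32 µM all 3 were above 0.1. With a replicate block, 397 genes had an unadjusted p under 0.05 for the response difference, 143 in PEO1, 407 in PEO4 and 394 against flanks, 0 after adjustment, and the slopes gave sign-flip p = 0.25 (exact, n = 3, the smallest possible) except for body minus flank on length, p = 1. With the GC offset and the replicate block the list medians were 0.0470, 0.0249, -0.0372, 0.0141, -0.0432, -0.0169 and 0.00537 in the order above, and CNTNAP2 was -0.0104.

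The median standard error of a gene's response difference was 0.17.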

Other observations

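Without drug, the GC slopes of single libraries already spanned -0.19 to 0.11 in PEO1 and -0.10 to 0.06 in PEO4 around the mean of their line. The share of autosomal reads outside protein-coding genes was 50.4%, 51.8% and 51.9% in PEO1 16 µM replicates 1, 2 and 3, and 51.0%, 52.5% and 52.0% in PEO4 32 µM replicates 1, 2 and 3. The share in protein-coding genes under 50 kb was 8.54%, 7.15% and 7.18% in PEO1 and 8.31%, 7.04% and 7.35% in PEO4. In both shares replicate 1 of each treated group lay apart from replicates 2 and 3, and its part in the response difference was not tested.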
